A study of Rattus norvegicus with 24 samples.

Results

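Inhibitory neuron markers are described here as 8 genes: Gad1, Gad2, Slc32a1, Pvalb, Calb1, Calb2, Lhx6 and Reln. They were chosen by name, as the loci of the deposited table that carry these symbols, out of 26641 named loci among 42334. Each symbol had 1 locus, and all 8 passed the filter on low values in every comparison. The messenger RNA libraries came from adult male Sprague-Dawley rats, 6 with traumatic brain injury (TBI) by lateral fluid-percussion and 6 sham-operated, killed 3 months after surgery. The sham-operated rats had the same anesthesia and craniectomy without the impact, so all groups carried the opened skull. From each rat the perilesional cortex and the ipsilateral thalamus were dissected from 1 coronal slice, giving 24 libraries in 4 groups of 6. The TBI rats had been selected on magnetic resonance images for an enhanced signal around the lesion, and stand for that kind of injury. The labels give no other treatment.

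Neurons that release gamma-aminobutyric acid (GABA) make it from glutamate and load it into synaptic vesicles. In the cortex they are interneurons of several classes, which are told apart by calcium-binding proteins, neuropeptides and the ventral forebrain region where they were born. In the rodent thalamus most GABA neurons lie in the reticular nucleus, a sheet of parvalbumin-containing cells around the relay nuclei, and few are found in the relay nuclei themselves. The calcium-binding proteins calbindin and calretinin are also made by thalamic neurons that release glutamate, so these genes do not mark inhibitory cells alone.

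Values are normalized counts, that is, fragments divided by a size factor of the library. Levels are compared for 1 gene between libraries and never between genes, because transcript lengths were not used here. Depth was between 30568927 and 54608922 fragments per library, and the lowest value of any member came from 23 fragments. The regions differed in their markers: cortical markers summed to between 72647 and 78280 in the sham cortex and 9603 to 15818 in the sham thalamus, and thalamic relay markers to between 4043 and 4404 and between 82758 and 121405. Several libraries stood apart. Striatal markers summed to 19513 in the cortex of TBI rat 24, against at most 12293 in the other TBI cortex libraries, and to 9941 in the thalamus of sham rat 26, against at most 6543. Choroid plexus markers summed to 270141 in the thalamus of TBI rat 45, to 110711 in that of sham rat 50 and to 70192 in that of sham rat 34, where the TBI median was 1716 and the sham median 1362. In the cortex they summed to 33668 in TBI rat 45, against at most 1508 in the other 5 TBI libraries, and to 24411 in sham rat 26 and 11680 in sham rat 34, where the sham median was 2766.

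**Figure D1:**
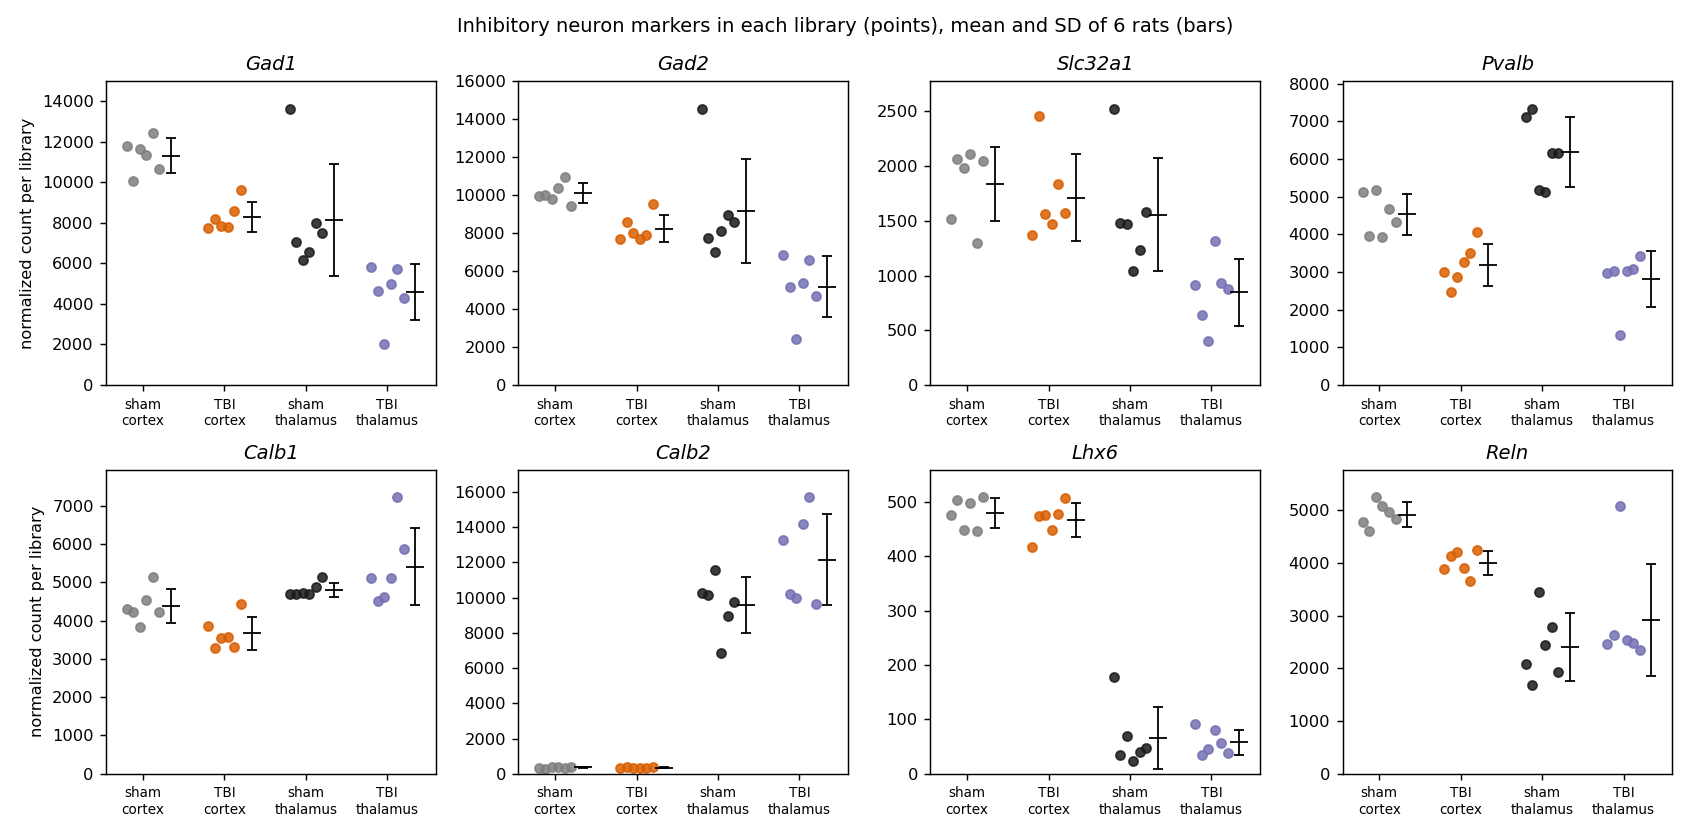
Normalized counts (y axis, from 0) of the 8 genes in each of the 24 libraries (points) by group (x axis), with the mean and SD of 6 rats (bars at the right of the points). Gad1, Gad2 and Slc32a1 of sham thalamus rat 26 and Reln of TBI thalamus rat 45 lie far above the other 5 points of their group.

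In the perilesional cortex, 5 of the 8 genes were lower in TBI than in sham-operated rats and none was higher, by limma and by edgeR, with 0 higher at an unadjusted p under 0.05. The enzymes of GABA synthesis Gad1 and Gad2, the calcium-binding proteins Pvalb and Calb1, and Reln fell by between 16.0% and 29.6% of the sham mean. Slc32a1, Calb2 and Lhx6 did not pass the test. Lower calls made up 14.9% of the 15493 loci tested and higher calls 14.3%. The median log2 fold change of the 8 genes was -0.27, beside -0.01 over all tested loci. Without rats 26, 34, 45 and 50, the rats with a library high in choroid plexus markers (chosen after seeing the data), 2 of the 8 were called, Gad1 and Reln, on 3 sham and 5 TBI rats. Of all 15488 loci tested on these rats, 557 were lower and 944 higher, where the full fit called 2308 and 2223 of 15493. The part of the choroid plexus markers in the result was not tested. In 2 of the 8, Gad1 and Reln, the 6 TBI and 6 sham values did not overlap, as was the case for 12.5% of all tested loci.

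Gad1 encodes the larger form of glutamate decarboxylase, the enzyme that makes GABA throughout the cell. Its locus is listed at chr3:63479962-63519881. In the sham cortex it ranged from 10085 to 12446 with a median of 11495, and in the TBI cortex from 7726 to 9626 with a median of 8003. Every TBI value was below every sham value. The mean fell by 26.8%, a log2 fold change of -0.45 ± 0.06 (SE, n = 6 and 6, limma adjusted p = 1.5e-04). Gad2 encodes the smaller form, which makes GABA mainly at nerve endings, and is listed at chr17:90851377-90918158. It lay between 9444 and 10949 in the sham cortex, with a median of 9983, and between 7678 and 9522 in the TBI cortex, with a median of 7954. In 5 of the 6 TBI rats it was below every sham rat. This was a log2 fold change of -0.30 ± 0.06 (limma adjusted p = 0.00148), and -0.27 without rats 26, 34, 45 and 50 (adjusted p = 0.054).

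Slc32a1 encodes the vesicular transporter that loads GABA and glycine into synaptic vesicles (chr3:160500059-160504727). Its sham cortex values ran from 1298 to 2107 with a median of 2012, and its TBI values from 1371 to 2460 with a median of 1567. The groups overlapped, and the highest of all 12 values was that of TBI rat 24, the library with the high striatal markers. On the log2 scale the change was -0.11 with a 95% interval of -0.41 to 0.20 (limma adjusted p = 0.615). Without rat 24 and rat 26, an alternative added after seeing the data, it was -0.27 (limma adjusted p = 0.14). In the library of rat 24 Adora2a, the adenosine receptor of striatal projection neurons, stood at 1612 and at most 167 in the other 5, and Sst, the somatostatin gene, at 3528 and at most 2585. What part these had in the Slc32a1 value was not tested.

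Pvalb encodes parvalbumin, the calcium buffer of fast-spiking interneurons (chr7:119419895-119435231). It ranged from 3927 to 5181 in the sham cortex, with a median of 4497, and from 2460 to 4056 in the TBI cortex, with a median of 3123. Its mean fell by 29.6%, and 5 of 6 TBI values were below every sham value. Its log2 fold change was -0.51 ± 0.11 (limma adjusted p = 0.00256), the most negative of the 8 over all 12 libraries. Without rats 26, 34, 45 and 50 it was -0.34 and the call was lost (limma adjusted p = 0.118), with Gad1 at -0.35. Calb1 encodes calbindin, found in interneurons and in upper-layer projection neurons of the cortex (chr5:34217896-34247679). It lay between 3818 and 5141 in the sham cortex, with a median of 4257, and between 3283 and 4431 in the TBI cortex, with a median of 3565. The ranges overlapped. Calb1 had a log2 fold change of -0.25 ± 0.08 (limma adjusted p = 0.0251), and leaving out rat 24, 38, 50 or 56 ended this call, at adjusted p between 0.0512 and 0.0558. It was also lost without rats 24 and 26 (limma adjusted p = 0.0781) and without rats 26, 34, 45 and 50 (adjusted p = 0.142). Calb2 encodes calretinin, a marker of interneurons that contact other interneurons (chr19:52310640-52337714). It was low in the cortex, between 295 and 411 in sham and between 309 and 398 in TBI rats. Its interval of -0.25 to 0.15 around a log2 fold change of -0.05 covered 0 (limma adjusted p = 0.726).

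Lhx6 encodes a LIM homeodomain factor of interneurons born in the medial ganglionic eminence, the source of the parvalbumin and somatostatin classes (chr3:20718952-20742506). Its values lay between 447 and 508 in the sham cortex and between 416 and 507 in the TBI cortex, with medians of 487 and 474. The groups overlapped, with a log2 fold change of -0.04 and an interval of -0.18 to 0.10 (limma adjusted p = 0.658). Reln encodes reelin, an extracellular protein that guides layering during development and is secreted by interneurons in the adult cortex (chr4:9349480-9775896). It ranged from 4602 to 5248 in the sham cortex, with a median of 4909, and from 3659 to 4251 in the TBI cortex, with a median of 4017. The TBI values were below the sham values in all 6 rats, and the log2 fold change was -0.30 ± 0.05 (limma adjusted p = 4.9e-04).

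Markers of neurons in general moved with these genes. Of 15 neuronal markers 11 were lower and none higher in the TBI cortex by limma and edgeR (0 higher at an unadjusted p under 0.05), with a median of -0.27 on the log2 scale, and their summed level was 423279 to 524304 in TBI against 569834 to 593067 in sham rats. Microglial markers summed to between 33818 and 39339 in TBI and between 24120 and 26583 in sham rats, and 13 of 14 were higher. In tissue libraries, fewer cells of a type and less RNA per cell cannot be told apart. With libraries scaled to an equal level of neuronal markers, the median of all tested loci moved to 0.30. On that scale Gad1 was lower (-0.14, limma adjusted p = 0.0407), Lhx6 (0.27, adjusted p = 0.00374) and Calb2 (0.26, adjusted p = 0.0294) were higher, and the other 5 did not pass the test. Higher calls then made up 66.0% of all tested loci and lower calls 0.800%, and both Lhx6 and Calb2 were below the median locus. With all 24 libraries in 1 limma fit, which shares the spread of the thalamus, Pvalb and Calb1 were called and the adjusted p was 0.0776 for Gad1, 0.222 for Gad2 and 0.15 for Reln.

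In the ipsilateral thalamus, 4 of the 8 genes were lower in TBI than in sham-operated rats and none was higher, by limma and by edgeR, with 1 higher, Calb2, at an unadjusted p under 0.05. They were the 3 genes of GABA synthesis and vesicle loading, Gad1, Gad2 and Slc32a1, which fell by between 43.4% and 45.6% of the sham mean, and Pvalb, which fell by 54.6%. The other 4 genes, Calb1, Calb2, Lhx6 and Reln, had log2 fold changes between 0.07 and 0.33 and did not pass the test. Lower calls made up 20.9% of the 15564 loci tested and higher calls 14.5%. The median log2 fold change of the 8 was -0.39, beside -0.02 over all tested loci. The groups did not overlap for 3 of the 8, Gad1, Gad2 and Pvalb, and for 18.2% of all tested loci.

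Gad1 ranged in the sham thalamus from 6178 to 13632 with a median of 7278, and in the TBI thalamus from 2012 to 5815 with a median of 4827. The groups did not overlap, but each had 1 value far from the rest, the highest in sham rat 26 and the lowest in TBI rat 45. Between the groups Gad1 had a log2 fold change of -0.85 ± 0.24 (limma adjusted p = 0.0134). Gad2 lay between 7015 and 14548 in the sham thalamus, with a median of 8338, and between 2406 and 6853 in the TBI thalamus, with a median of 5278. The extremes were the same 2 rats, and the log2 fold change was -0.85 ± 0.23 (limma adjusted p = 0.0096). Slc32a1 ran from 1040 to 2524 in sham and from 405 to 1318 in TBI rats, with medians of 1477 and 893. In 5 of 6 TBI rats it was below every sham rat, and the log2 fold change was -0.91 ± 0.25 (limma adjusted p = 0.0111).

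Pvalb had the largest fall of the 8 in the thalamus. It lay between 5138 and 7339 in the sham thalamus, with a median of 6160, and between 1318 and 3414 in the TBI thalamus, with a median of 3017. The highest TBI value was well under the lowest sham value, and 5 of the 6 TBI rats fell within 2980 to 3414. Its log2 fold change was -1.19 ± 0.19 (limma adjusted p = 3.03e-04). Without rats 26, 34, 45 and 50 it was -0.99 (limma adjusted p = 6.05e-05), while Gad1 was at -0.47, Gad2 at -0.52 and Slc32a1 at -0.56. Slc32a1 lost its call there (adjusted p = 0.0574) and without rats 24 and 26 (-0.70, adjusted p = 0.0517). The thalamus of rat 26 was near the sham median in choroid plexus markers (log2 ratio -0.01) and high in striatal markers (0.98). Leaving out the 4 rats thus also removed the highest sham values of Gad1, Gad2 and Slc32a1.

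**Figure D2:**
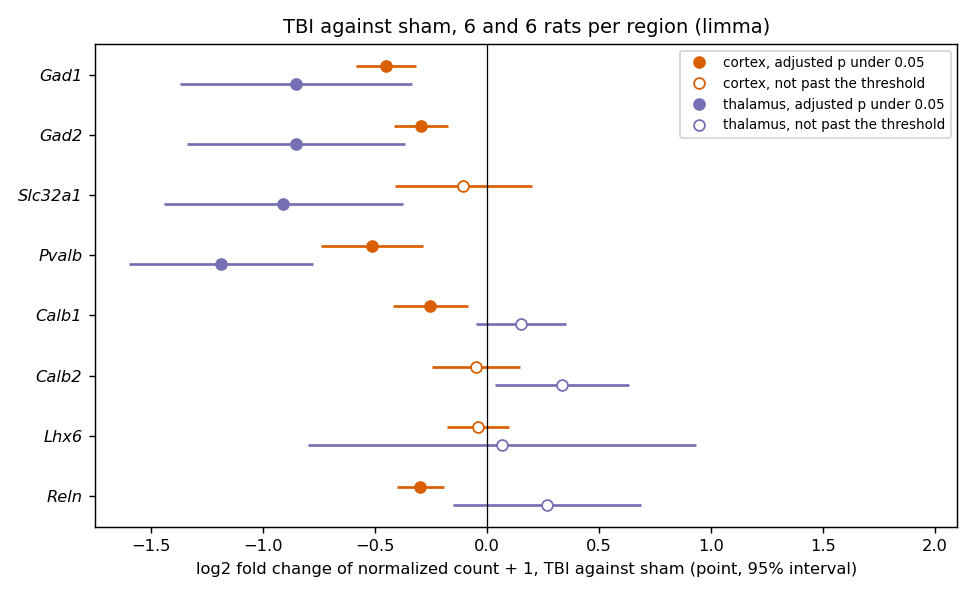
TBI against sham as the log2 fold change (x axis) of each gene (y axis) in the cortex and thalamus, with the 95% interval as a line. Filled points passed an adjusted p of 0.05, and the 4 filled thalamus points, Gad1, Gad2, Slc32a1 and Pvalb, lie between -1.19 and -0.85.

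Calb1 in the thalamus was between 4681 and 5138 in sham rats and spread from 4520 to 7215 in TBI rats. Of the 6 TBI values 2 were above and 2 below every sham value, so the groups overlapped on both sides. The log2 fold change was 0.15 with an interval of -0.05 to 0.35 (limma adjusted p = 0.23). Calb2 was between 6832 and 11581 in sham and between 9643 and 15698 in TBI rats, with medians of 9960 and 11741. In 3 of 6 TBI rats it was above every sham rat, and the log2 fold change was 0.33 with an interval of 0.03 to 0.63 (limma adjusted p = 0.0785). It passed the test when rat 34 (0.39, adjusted p = 0.049) or rat 63 (0.40, adjusted p = 0.048) was left out, and with all 24 libraries in 1 fit (adjusted p = 0.0342).

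Lhx6 was low in the thalamus. Sham values ran from 23.9 to 179 with a median of 43.2, and TBI values from 34.2 to 91.3 with a median of 50.9. The highest value was that of sham rat 26, with 68.9 the next. The log2 fold change was 0.07 with an interval of -0.80 to 0.93 (limma adjusted p = 0.916), a wide range that holds both falls and rises. Reln lay between 1693 and 3455 in sham and between 2341 and 5093 in TBI rats, with medians of 2263 and 2510. The 3 highest of the 12 values were those of TBI rat 45, sham rat 34 and sham rat 50, at 5093, 3455 and 2791, the 3 libraries with the high choroid plexus markers. The log2 fold change was 0.27 with an interval of -0.15 to 0.69 (limma adjusted p = 0.317). Without rats 26, 34, 45 and 50 it was 0.32 (limma adjusted p = 0.0411), on 3 sham and 5 TBI rats.

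**Figure D3:**
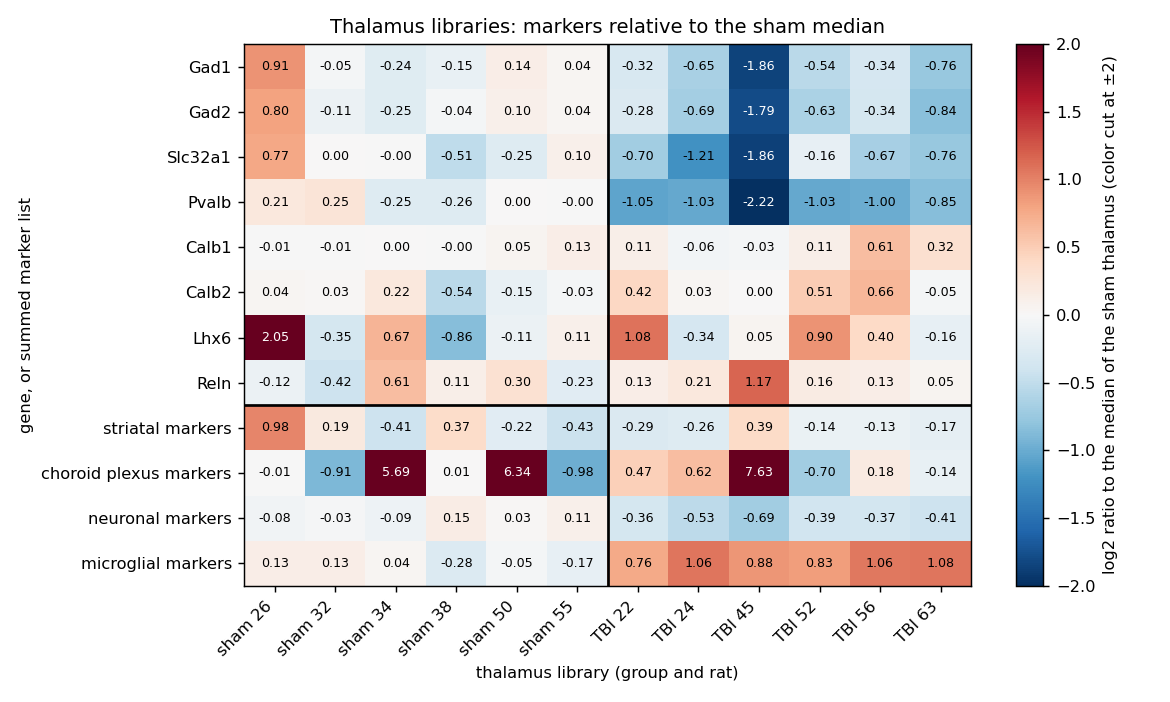
Log2 ratio of each gene, and of 4 summed marker lists, to the median of the sham thalamus (color, cut at ±2, with the value printed) in the 12 thalamus libraries (x axis). Sham rat 26 is high for Gad1 (0.91), Gad2 (0.80), Slc32a1 (0.77), Lhx6 (2.05) and the striatal markers (0.98), and TBI rat 45 is low for Gad1 (-1.86) and Pvalb (-2.22) and high for Reln (1.17) and the choroid plexus markers (7.63).

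The thalamus of sham rat 26 was the highest of its group in several genes of basal forebrain GABA neurons. Its Adora2a was 903 against at most 513 in the other 5 sham libraries, its Nkx2-1, a factor of the medial ganglionic eminence and the pallidum, was 56.3 against at most 21.3, and its Dlx1 was 469 against at most 270. Without rat 26 or with any other single rat left out the 4 calls in the thalamus remained. Markers of neurons fell here as well, with 12 of 15 lower, none higher by limma or edgeR (0 at an unadjusted p under 0.05) and a median of -0.45, and summed to between 338431 and 425397 in TBI and between 511261 and 607508 in sham rats. Scaled to equal neuronal markers, the median of all tested loci moved to 0.42. Pvalb stayed lower on that scale (-0.75, limma adjusted p = 0.00108), Gad1, Gad2 and Slc32a1 were at -0.41, -0.41 and -0.47 with adjusted p between 0.0723 and 0.0933, and Calb1, Calb2 and Reln were higher, at 0.59, 0.77 and 0.71. Higher calls then made up 74.4% of all tested loci, so 3 higher calls among the 8 are under that background, and lower calls 1.64%.

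**Figure D4:**
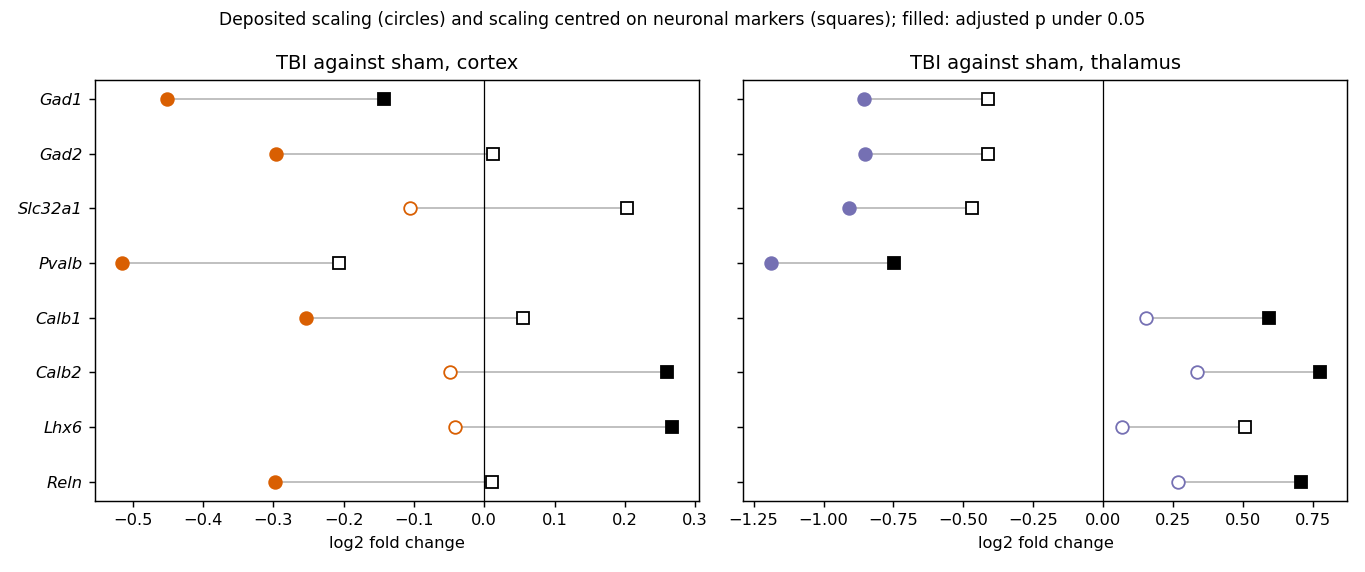
Each gene's log2 fold change of TBI against sham (x axis) under the deposited scaling (circles) and with libraries scaled to equal neuronal markers (squares), in the cortex and thalamus. Filled symbols passed an adjusted p of 0.05, and every gene moved to the right, as did the median of all tested loci, to 0.30 and 0.42.

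For the 4 genes that fell in the thalamus, the bases before their start were read from RefSeq promoter sequences of the GRCr8 assembly, which held an entry for 6 of the 8 genes (Gad1, Gad2, Slc32a1, Pvalb, Lhx6 and Reln). They are shown because these 4 genes were called lower there, and whether they share regulation was not tested. The last 30 bases before the annotated start are given 5′ to 3′ on the strand of the gene, with each CG dinucleotide in capitals.
Gad1 (chr3:75777422-75777451, plus strand): gCGtgcCGgaccagggatcctgcaagcaag
Gad2 (chr17:89671688-89671717, plus strand): CGccacacacactCGcacaCGcaCGcaggc
Slc32a1 (chr3:167687215-167687244, plus strand): agagCGccctggggCGcCGCGcCGagaccc
Pvalb (chr7:111666290-111666319, minus strand): taatcttttCGcacttgctctgccCGctta
In the window of 300 bases around the start, Gad1 held 26 CG dinucleotides, Gad2 29, Slc32a1 42 and Pvalb 23. Reln held 47 and Lhx6 20, and neither was called in the thalamus. The median of 33469 promoters was 7, with quartiles of 3 and 19, so all 6 windows lay above the upper quartile. The letters TATAAA, searched on both strands, were found in the window of Gad1 alone among the 6 and in 14.2% of all promoters.

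In sham-operated rats the thalamus and the cortex differed in 6 of the 8 genes. Gad1, Lhx6 and Reln were lower in the thalamus, and Pvalb, Calb1 and Calb2 were higher. Calls in either direction made up 62.2% of 15582 tested loci, so 6 of 8 is near that background and the sizes are given as a description. Calb2 was 26.9-fold higher in the thalamus, with a mean of 9598 ± 1598 against 357 ± 41.7 (SD, n = 6 each). Lhx6 was 7.35-fold lower, at 65.3 ± 57.5 against 480 ± 27.8, and Reln 2.05-fold lower, at 2400 ± 646 against 4922 ± 230. These folds are ratios of the group means. For Lhx6 the ratio rested on rat 26: without it the means were 42.6 and 481 (n = 5 each), 11.3-fold lower, and the fitted log2 fold change was -3.19 with and -3.55 without rat 26. Calb2, Lhx6 and Reln did not overlap between regions, as was the case for 43.1% of all tested loci, and their limma adjusted p were at most 2.96e-06.

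The GABA genes differed less between the regions of sham rats. Gad1 had a log2 fold change of -0.52 ± 0.15 (limma adjusted p = 0.00528), with 5 of 6 thalamus values below every cortex value and that of rat 26 above them all. Gad2 at -0.18 (limma adjusted p = 0.23) and Slc32a1 at -0.27 (limma adjusted p = 0.197) did not pass the test, but without rat 26 they were lower at -0.33 (adjusted p = 7.56e-04) and -0.47 (adjusted p = 0.0113). Pvalb was higher in the sham thalamus, at 6181 ± 927 against 4530 ± 552, with a log2 fold change of 0.44 ± 0.10 (limma adjusted p = 0.001). The higher Calb1 of the thalamus, at 0.14 ± 0.06 (limma adjusted p = 0.049), was no longer called without rat 26, 32, 34, 38 or 55, at adjusted p up to 0.17, and under TMM, upper quartile scaling, limma-voom and edgeR.

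In TBI rats 7 of the 8 genes differed between the regions, where calls in either direction made up 57.5% of 15737 tested loci. Gad1, Gad2, Slc32a1, Lhx6 and Reln were lower in the thalamus, and Calb1 and Calb2 were higher. Gad1 had a log2 fold change of -0.93 ± 0.20 (limma adjusted p = 0.00122), Gad2 of -0.74 ± 0.19 (limma adjusted p = 0.00468) and Slc32a1 of -1.08 ± 0.23 (limma adjusted p = 9.7e-04), and for each of them every thalamus value was below every cortex value. Calb1 was higher in the thalamus, with no overlap (0.55 ± 0.11, limma adjusted p = 5.64e-04). In all, 6 of the 8 did not overlap between the regions of TBI rats, beside 36.0% of all tested loci. Pvalb, higher in the thalamus of sham rats, stood at 2804 ± 746 in the thalamus and 3190 ± 555 in the cortex of TBI rats, with a log2 fold change of -0.23 and an interval of -0.65 to 0.19 (limma adjusted p = 0.339). Each group of libraries enters 2 of these 4 comparisons, so they are not independent of each other.

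Across the 4 groups, Gad1 was highest in the sham cortex, followed by the TBI cortex, the sham thalamus and the TBI thalamus, at means of 11322, 8289, 8156 and 4584. The SDs of the middle pair, 728 and 2761, were larger than the distance between them. Gad2 had the order sham cortex, sham thalamus, TBI cortex and TBI thalamus (10092, 9148, 8237 and 5175), and only its lowest group was clear of the others by every library. For Pvalb the sham thalamus led, at 6181, and the sham cortex, TBI cortex and TBI thalamus followed at 4530, 3190 and 2804, the last pair within their SDs. Calb1 was highest in the TBI thalamus at 5402 ± 1009 and lowest in the TBI cortex at 3671 ± 428.

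Whether the effect of TBI differed between the regions was tested as an interaction over 24 libraries. By limma with adjustment over 15678 loci, none of the 8 genes passed, and 6 of 8 had an unadjusted p under 0.05. Adjusted calls made up 7.26% of all tested loci, and 22.3% had an unadjusted p under 0.05. Positive values mean a less negative or more positive TBI effect in the thalamus. The nearest to the threshold was Calb1, lower in the cortex and at 0.15 in the thalamus, with a difference of 0.40 and an interval of 0.14 to 0.67 (limma adjusted p = 0.0549). The difference of Pvalb was -0.67, with an interval of -1.16 to -0.19 (limma adjusted p = 0.0823). With the rat as a block, which uses that both regions came from the same animals, Calb1 (adjusted p = 0.0421) and Pvalb (adjusted p = 0.0399) passed limma's test. edgeR on the recovered fragments called Calb1 alone (adjusted p = 0.049).

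The differences of the remaining genes ran in both directions. Slc32a1 was at -0.81 with an interval of -1.45 to -0.17 (limma adjusted p = 0.117), Gad2 at -0.56 (-1.07 to -0.04, adjusted p = 0.187) and Gad1 at -0.40 (-0.96 to 0.15, adjusted p = 0.397). Reln was at 0.56 with an interval of 0.12 to 1.01 (limma adjusted p = 0.114), and at 0.60 without rats 26, 34, 45 and 50 (adjusted p = 0.0155). Calb2 was at 0.38 (0.03 to 0.74, limma adjusted p = 0.19) and Lhx6 at 0.11 (-0.78 to 1.00, limma adjusted p = 0.918).

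Ratios between members within a library do not depend on the scaling between libraries, and are given as a description. The ratio of Gad2 to Gad1 was between 0.841 and 0.992 in the sham cortex and between 0.919 and 1.05 in the TBI cortex, and in the thalamus the medians were 1.12 in sham and 1.13 in TBI rats. Lhx6 relative to Gad1 lay between 0.0359 and 0.0499 in the sham cortex and between 0.0527 and 0.0606 in the TBI cortex, without overlap. This restates the log2 fold changes of -0.45 for Gad1 and -0.04 for Lhx6 there. In the thalamus the ratio overlapped, from 0.00364 to 0.0131 in sham and from 0.00736 to 0.0222 in TBI rats. The ratio of Pvalb to Gad1 had nearly equal medians in the cortex, 0.399 in sham and 0.398 in TBI rats. In the thalamus it was between 0.769 and 1.04 in 5 sham rats, with rat 26 at 0.522, and between 0.512 and 0.796 in TBI rats.

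**Figure D5:**
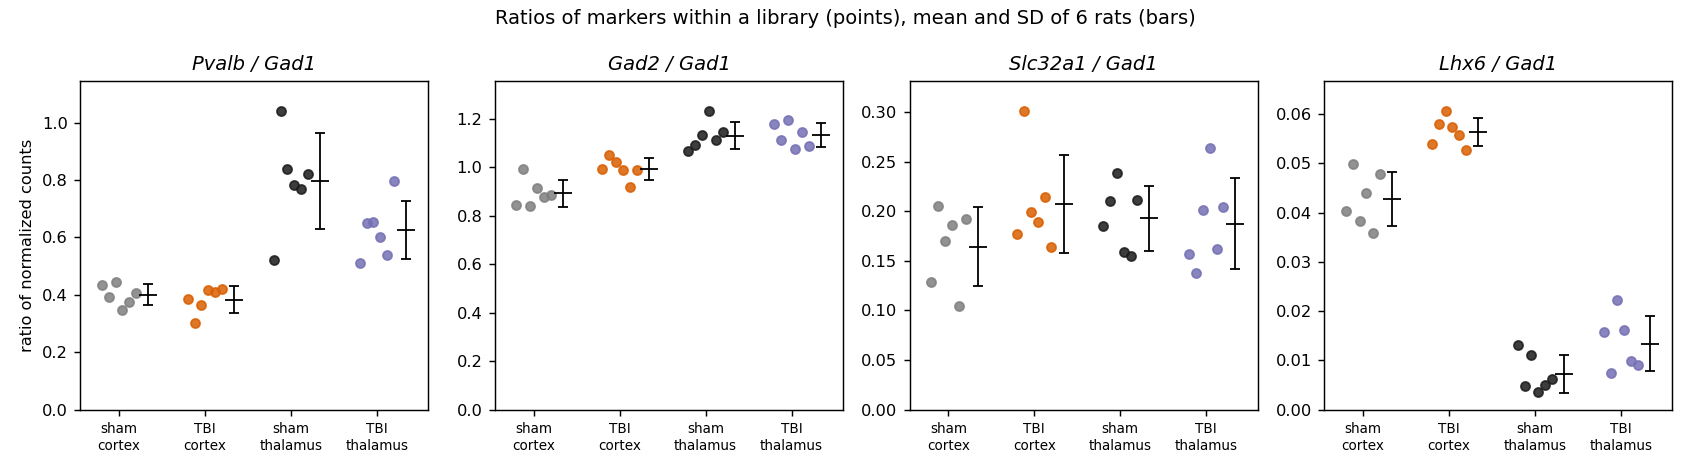
Ratios of the normalized counts of 2 genes within each library (y axis, from 0; points) by group (x axis), with the mean and SD of 6 rats (bars). The ratio of Lhx6 to Gad1 in the TBI cortex, from 0.0527 to 0.0606, lies above that in the sham cortex, and rat 26 is the lowest sham thalamus point for Pvalb over Gad1, at 0.522.

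Over the 24 libraries, the deviations of log2 values from the 4 group means were compared with those of 15677 other loci. These correlations are descriptions: the points share depth, dissection and, by pairs, the rat. The locus most like Gad1 was Gad2 (Pearson r = 0.98, Spearman rho = 0.89), and the next was Dlx1, a homeobox factor of forebrain GABA neurons (r = 0.91, rho = 0.53). For Dlx1 the likeness lay in the thalamus (r = 0.96) and was of opposite sign in the cortex (r = -0.56). Gad2 in turn was most like Gad1 and Dlx1 (r = 0.90). Slc32a1 was most like Sh2d5 (r = 0.88, rho = 0.89) and Sst (r = 0.87, rho = 0.88), with r of 0.90 and 0.93 within the cortex, where rat 24 was the highest for Slc32a1 and Sst.

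The other members had different companions. Pvalb was most like Timp4 (r = 0.89, rho = 0.84) and Dmrtb1 (r = 0.84, rho = 0.76). Reln was most like Frem1 (r = 0.94, rho = 0.85) and Slc13a4 (r = 0.92, rho = 0.78), at r of 0.96 and 0.94 in the thalamus and 0.41 for each in the cortex. The thalamus of TBI rat 45 stood far above the rest of its group in Reln (5093, next 2625), and the likeness without it was not tested. For Lhx6, a locus that joins Irf9 and Rnf31 was among the 2 most similar (r = 0.81, rho = 0.59). Calb2 was most like ARL10 (r = 0.88) and Resp18 (r = 0.84), and Calb1 was most like RGD1563441 (r = 0.83) and Tomm20 (r = 0.78). Between members, Gad1 and Slc32a1 had r = 0.83 over the 12 thalamus libraries and 0.51 over the 10 without sham rat 26 and TBI rat 45, and -0.27 in the cortex. Pvalb and Reln had r = -0.88 in the thalamus and -0.77 without these 2 libraries.

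Other genes of interneuron classes were followed as a list of 20, of which 18 were tested in the cortex and 17 in the thalamus. In the cortex 6 were lower and 2 higher, with a median log2 fold change of -0.20, beside 14.9% lower and 14.3% higher among all tested loci. The most negative was Lamp5, a membrane protein of neurogliaform cells, at -0.69 ± 0.09 (limma adjusted p = 1.18e-04), and the highest was Nos1, neuronal nitric oxide synthase, at 0.50 ± 0.09 (limma adjusted p = 0.00109). In the thalamus 9 were lower and none higher by limma and by edgeR (2 higher at an unadjusted p under 0.05), with a median of -0.80. Among all tested loci of the thalamus 20.9% were lower and 14.5% higher. Vip, the gene of vasoactive intestinal peptide, had the largest fall there, from 2892 ± 255 to 538 ± 134 (-2.46 ± 0.15, limma adjusted p = 7.26e-08), and the smallest called fall was that of the potassium channel Kcnc2 at -0.80. In the cortex Vip was at 2304 ± 286 in sham and 2094 ± 205 in TBI rats (limma adjusted p = 0.254). Of the 18 genes, 9 were higher and 9 lower in the sham thalamus than in the sham cortex (62.2% of all tested loci in either direction). Vip was among the higher, and Kcnc2 stood at 29926 ± 4583 against 5320 ± 321 (SD). Which cells carry these genes in the thalamus was not tested, so their falls are not read as a loss of interneurons. The change of Vip differed between the regions, at -2.33 on the log2 scale (limma adjusted p = 2.37e-08). It was the largest of 6 lower calls among 18 genes in the interaction, where 7.26% of all loci were called in either direction.

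Sst, made by the second large class of interneurons born with the parvalbumin cells, did not pass the test in either region. Its means were 2489 ± 447 and 2437 ± 570 in the sham and TBI cortex, and 159 ± 113 and 218 ± 98.8 in the sham and TBI thalamus. Npy, neuropeptide Y, was listed at a low level in the cortex, 41.1 ± 10.1 in sham and 30.8 ± 19.2 in TBI rats (-0.56, limma adjusted p = 0.194), and did not reach the filter in the thalamus.

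The 10 genes of GABA synthesis, release and clearance beside the members were mixed. In the cortex 6 were lower, and Slc6a13, a GABA transporter of meninges and vessels, was higher at 0.78, with a median of -0.14. In the thalamus 4 were lower, with Slc38a1, a neuronal glutamine transporter, at -0.35, and the glutamine transporter Slc38a5 was higher at 0.56, with a median of -0.09. Of the interneuron transcription factors 14 were tested in the cortex, where 2 were lower, Satb1 at -0.28 and Npas1 at -0.24. That count is near the 14.9% of all tested loci called lower in the cortex. In the thalamus 5 of 15 were lower, from Dlx5 at -0.74 and 2 were higher. All 14 microglial markers were higher there. The genes of the reticular nucleus and zona incerta had 2 of 9 lower in the thalamus, Six3 at -0.88 and Isl1 at -1.04, and 3 higher, of which Spp1, osteopontin, also a gene of activated microglia, was the most so at 3.11.

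Markers of other cells and of the regions were counted in the same way. Beside these counts stand the shares of all tested loci, 14.9% lower and 14.3% higher in the cortex, 20.9% and 14.5% in the thalamus. Of 7 excitatory neuron markers 3 were lower in the cortex, from the vesicular glutamate transporter Slc17a6 at -0.60 to Tbr1 at -0.33, and 2 in the thalamus, Slc17a7 at -1.05 and Slc17a6 at -0.21. Thalamic relay markers had 6 of 7 lower in the thalamus, with a median of -0.54 and Prkcd the most negative at -0.82, and 2 lower and 2 higher of 6 in the cortex, where Synpo2 was the highest at 0.80. Of 7 cortical markers 3 were lower in the cortex, with Neurod6 at -0.45. Astrocyte markers were higher in 6 of 9 in each region, led by Gfap at 2.26 in both, with Slc1a2 the 1 lower gene in the cortex at -0.21. Oligodendrocyte markers were higher in 3 of 7 in the cortex, with Cldn11 at 0.40, and in 1 of 7 in the thalamus, Opalin at 0.40. By limma none of 5 striatal markers was called in the cortex (1 higher by edgeR and at an unadjusted p under 0.05), and 2 were lower in the thalamus, Drd1 at -1.66 and Adora2a at -0.89. None of 8 choroid plexus markers was called between TBI and sham rats in either region by limma or edgeR, with 1 in the cortex and 0 in the thalamus at an unadjusted p under 0.05.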

How the data were processed

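Stranded polyadenylated RNA libraries were aligned by the authors with TopHat2 2.0.11 and Bowtie2 2.2.2 and assembled transcripts with Cufflinks 2.2.1. The methods name the genome RGSC3.4 with the annotation Rnor_5.0, the submitters' processing notes name Rnor_5.0, and the files state no build, so positions are given as listed. The deposited values are a signal per locus: the authors' fragment counts divided by a size factor per library. Whole fragments were recovered from the steps of the values (within 0.1 step for 99.97% or more of values); counting floors cover counting error only.

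Libraries were grouped by their labels. limma 3.58.1 (R 4.3.3, mean trend) was run on log2(normalized count + 1), a scale that understates changes of low genes, keeping a locus if its mean in the fitted libraries reached 10, with Benjamini-Hochberg adjustment over all loci tested and a threshold of 0.05. Loci without a name (37.1%) were left out. The interaction used 24 libraries without a block for the rat. Rat numbers in the titles tie the regions of 1 animal together: their deviations from group means correlated with a median of 0.187 (0.00393 to 0.569, over 0.1 in 10 of 12 rats), against -0.0332 for different rats.

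Alternatives were TMM and upper quartile scaling, scaling to neuronal markers, no filter or a mean of 50, pseudocounts of 0.1 and 5, limma-voom, edgeR 4.0.16 (quasi-likelihood) on the recovered fragments, all 24 libraries in 1 fit, a threshold of 0.01, each rat left out, and the rat as a block. The members and the lists were chosen with earlier results of these data known. Named were all 8 members, with the 2 most similar loci of each, and Sst, Vip and Npy. From each list the called genes with the extreme changes were named. Adora2a in the cortex, Nkx2-1, Dlx1 in rat 26, Six3, Ecel1 and Pax6 were named after their values were seen. Genes of the lists that match no locus name were not analysed here, and a few named by these rules are not reported here. The steps were tested on simulated data. Figures were drawn with matplotlib 3.10.9.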

Additional observations from a re-analysis of the deposited data

Results flagged for a closer look

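A single library stood far from the other 5 of its group in 6 of 32 combinations of a gene and a group, by Dixon's test, which flags about 1 group in 20 by chance. Of the 6, 4 were the highest values of the sham thalamus and all from rat 26: Gad1 at 13632 (next 8014, gap over range 0.754), Gad2 at 14548 (next 8932, 0.745), Slc32a1 at 2524 (next 1584, 0.634) and Lhx6 at 179 (next 68.9, 0.709). This library also had the highest summed striatal markers of its group, 9941, next to 6543. The other 2 came from the thalamus of TBI rat 45, where Pvalb was the lowest at 1318 (next 2980, 0.793) and Reln the highest at 5093 (next 2625, 0.897). Its choroid plexus markers summed to 270141, next to 2091. What part these markers had in the values was not tested.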

How the results depend on the processing

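Of 920 log2 fold changes of a member recomputed under an alternative, 846 kept their direction and side of the threshold, 36 lost and 21 gained a call and 17 changed sign. In the cortex, where 5 members were called, 3 were called with scaling to neuronal markers and 2 each with all 24 libraries in 1 fit and without rats 26, 34, 45 and 50, where Gad2, Pvalb and Calb1 were lost. In the thalamus 2 rather than 4 were called at a threshold of 0.01. In the interaction, where none was called, 1 was called with upper quartile scaling, with neuronal scaling, with edgeR and without rats 26, 34, 45 and 50, 2 with the rat as a block, and 0 to 1 with a rat left out. The block changed no call of a member between regions within sham or TBI rats.

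Signs changed in the cortex with neuronal scaling, which moves the median of all tested loci to 0.30, for Gad2 (0.013), Slc32a1 (0.20), Calb1 (0.055), Calb2 (0.26), Lhx6 (0.27) and Reln (0.011). The other changes were of Lhx6, never called in the thalamus: -0.17 there and -0.13 in the interaction with edgeR, and negative in the thalamus without rat 22, 32, 38, 50 or 52, where leaving out 1 rat gave -0.15 to 0.42, and in the interaction without rat 22, 32, 38 or 52, where it gave -0.12 to 0.46. The cause was not tested.

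Over all loci, the 4531 calls of the cortex became 10342 with neuronal scaling (10218 higher and 124 lower), 2436 at 0.01 and 1501 without rats 26, 34, 45 and 50. The 5516 of the thalamus became 11839 with neuronal scaling (11584 higher and 255 lower) and 3429 at 0.01. The 1138 of the interaction became 404 at 0.01, 587 without rats 24 and 26, 348 without rats 26, 34, 45 and 50, and 690 and 695 without rat 24 and rat 50. edgeR called 4533 loci in the cortex, 5478 in the thalamus and 1182 in the interaction. Leaving out rats 24 and 26 together, or 26, 34, 45 and 50, was chosen after seeing the data. Depth limits Lhx6 most, at 23 fragments in its lowest library.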
